A study of Homo sapiens with 4 samples.

Results

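The intervals described here are the 1013 stretches of chromosome 13 at which GATA4 occupancy was listed in PaTu8988S, an established line of pancreatic adenocarcinoma cells. They were taken by chromosome name alone from a list of 21308 intervals, and they make up 4.85% of the 20876 intervals on the 22 autosomes (exact 95% Clopper-Pearson interval 4.56 to 5.15%, counting error only). Each interval is a region where cleavage fragments piled up in CUT&RUN, an assay in which a nuclease tethered to an antibody cuts the DNA around a bound protein. By its label, the list gives the intervals common to 4 libraries of 1 group. Each library was made with 500000 cells of this single line and 10 ug of antibody against GATA4. The labels name neither a change of genotype nor a treatment, and do not say whether the 4 came from separate cultures. A control library was not analysed here.

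GATA4 is a zinc-finger transcription factor that binds short GATA-containing DNA words. It takes part in forming the heart and also organs of the endoderm such as the stomach. In pancreatic cancer, GATA4 and its paralogue GATA6 are studied for their link to the classical, more epithelial expression programme. Chromosome 13 is one of the acrocentric human chromosomes, whose short arm carries ribosomal RNA genes and repeats and whose long arm holds nearly all of its protein-coding genes. Among the genes of that arm are PDX1, a homeobox regulator of pancreas formation, CDX2, a homeobox regulator of the intestine, KLF5, a zinc-finger regulator of epithelial growth, FOXO1, a target of insulin signalling, and IRS2, an adaptor of the insulin receptor. In a RefSeq table these genes follow one another along the chromosome in the order PDX1, CDX2, FOXO1, KLF5 and IRS2. Their positions in build hg19, the build of the list, were not used here, so no interval below is assigned to a gene, and the letters of the intervals are not shown.

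Between its first and last interval, chromosome 13 carried more intervals per Mb than the other autosomes pooled, and they were spread over most of that length. Between its first interval, at position 19031246, and the end of its last, at 115080452, the 1013 intervals amounted to 10.5 per Mb. The other 21 autosomes together held 7.38 per Mb, a ratio of 1.43 (1.34 to 1.52 from the binomial interval of the share). Taken one by one, those autosomes had a median of 7.30 per Mb, with quartiles of 3.90 and 13.4, and 6 of them lay above chromosome 13. The density thus lay inside the spread between autosomes. The nearest in density were chromosome 11 with 10.1 per Mb, chromosome 14 with 9.18, chromosome 7 with 8.50 and chromosome 15 with 7.82. The length used here leaves out what precedes the first interval of a chromosome and keeps empty stretches further on. With the longest empty stretch of each autosome left out, the ratio to the other autosomes pooled was 1.41. Full chromosome lengths were not used. The list has no replicate, so none of the differences between chromosomes given here was tested. Intervals lie close together along a chromosome, so binomial intervals, here and below, are too narrow.

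No interval of chromosome 13 preceded position 19031246. Chromosomes 14, 15 and 22, which are also acrocentric, likewise began late, at 19000032, 20001840 and 16097815, whereas the first interval of chromosome 21 began at 9426474. Chromosome 13 had the highest interval count of these 5 acrocentric chromosomes, with 1013; chromosome 14 had 810, chromosome 21 had 802, chromosome 15 had 645 and chromosome 22 had 78. In density chromosome 21 stood above it, at 20.8 per Mb, and chromosome 22 furthest below, at 2.22.

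Relative to its genes, chromosome 13 stood further up. The RefSeq table, used here for the order of genes and their number per chromosome, lists 338 protein-coding genes on it, fewer than on 19 of the other 21 autosomes. This gave 299.7 intervals per 100 protein-coding genes, against 105.7 on the other autosomes pooled, 2.83 times as many. Chromosomes 18, 20 and 21 had higher values, at 409, 341 and 336 per 100 genes. Chromosome 11, which was closest in density, had 1301 genes and 104.5 intervals per 100 genes. Across the 22 autosomes the number of intervals and the number of genes went together only weakly (Pearson r = 0.21, Spearman rho = 0.18). That correlation is a description over chromosomes that share the same 4 libraries.

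**Figure D1:**
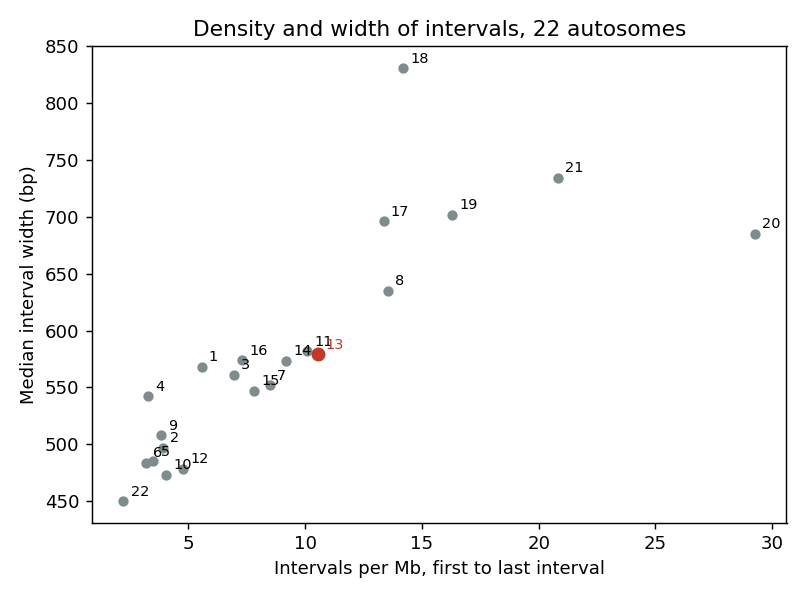
Each point is 1 of the 22 autosomes, with the number of intervals per Mb from its first to its last interval on the x axis and the median interval width in bp on the y axis; the numbers are chromosome names and chromosome 13 is red. Chromosome 13, at 10.5 per Mb and 579 bp, sits beside chromosome 11 (10.1 per Mb, 582 bp) on a trend in which denser chromosomes had wider intervals.

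In windows of 1 Mb, with edges set from position 0, chromosome 13 was well filled rather than peaked between its first and last interval. Its 97 windows held a median of 7 intervals (quartiles 2 and 16), against a median of 3 (quartiles 1 and 6) in the 2705 windows of the other autosomes. Of the single autosomes, chromosome 20 had a higher window median, at 11, and chromosome 11 had the same, at 7. Windows with 10 intervals or more numbered 42 of 97, or 43.3% (exact 95% interval 33.3 to 53.7%), against 470 of 2705, or 17.4% (16.0 to 18.9%), on the other autosomes; over all 22 autosomes 18.3% of windows passed this limit. Chromosome 20 exceeded chromosome 13 in this share, with 57.1%, and chromosomes 8, 11, 19 and 14 followed with 39.5, 35.6, 33.3 and 32.6%. Empty windows were few: 6 of 97 (6.19%, exact 95% interval 2.30 to 12.98%), against 565 of 2705 (20.9%, 19.4 to 22.5%). Windows before a chromosome's first interval are left out, here and below, which on chromosome 13 means those before 19 Mb. Empty windows further on are kept, such as those in the 21.1 Mb empty stretch of chromosome 9. The shares depend on this choice and were not recomputed from position 0.

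The position of chromosome 13 in this comparison changed with the limit. At 5 intervals or more, 59.8% of its windows passed, against 34.2% on the other autosomes, and at 20 or more it was 20.6% against 7.76%. At 30 or more the shares were alike, with 4 windows (4.12%) on chromosome 13 and 123 (4.55%) on the other autosomes, and 10 autosomes had a higher share. At 50 or more chromosome 13 had none, like chromosomes 5, 6, 15 and 22, against 60 windows (2.22%) on the other autosomes pooled. Its fullest window held 39 intervals, whereas the fullest windows of the other autosomes held between 18 and 351, with a median of 89.

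The even filling can be read from how many windows, taken from the fullest down, hold 50% of a chromosome's intervals. On chromosome 13 the 19 fullest windows did so, which is 19.6% of its windows. On the other 21 autosomes the share ran from 2.56% on chromosome 18 to 18.7% on chromosome 6, with a median of 10.2%. With windows counted only from the first interval on, chromosome 13 had the highest of the 22. The chromosomes nearest in density were closer to it than that median. Chromosome 15 had 18.1%, chromosome 7 had 16.25%, chromosome 14 had 15.7% and chromosome 11 had 15.6%. The fullest window of chromosome 13 held 3.85% of its intervals, the lowest such share, against 4.04% on chromosome 11 and 35.9% on chromosome 21. The variance of its 1 Mb counts was 9.41 times their mean, against a median of 21.3 and a range of 3.63 to 178 on the others. Chromosomes 5, 6, 15 and 22 had lower ratios of variance to mean, at 7.63, 3.63, 8.63 and 5.21, and each of these also had a lower mean count. With clusters of 20 or more intervals left out, the other autosomes had a median of 12.9% and a highest share of 18.7%. Chromosome 13 has no such cluster, so its 19.6% could not change in this setting.

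**Figure D2:**
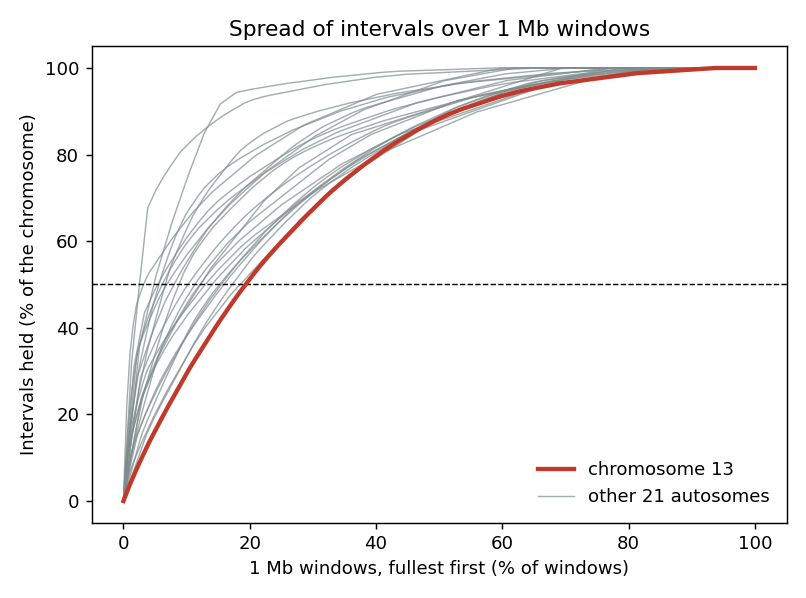
For each autosome the 1 Mb windows are ordered from the fullest to the emptiest along the x axis (% of windows), and the y axis gives the cumulative share of that chromosome's intervals (%); chromosome 13 is the red line, the other 21 autosomes are grey, and the dashed line marks 50%. The red line crosses 50% at 19.6% of windows, to the right of every grey line, which cross between 2.56 and 18.7%.

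Windows of 5 Mb showed where on chromosome 13 the intervals lay. The 21 windows held a median of 35 intervals (quartiles 12 and 77), against 16 (quartiles 9 and 34) in 553 windows elsewhere. The autosomes nearest in density had medians close to 35, with 34 on chromosomes 11 and 14, 32 on chromosome 15 and 31 on chromosome 7. Chromosomes 8, 19 and 20 lay above chromosome 13, at 35.5, 40.5 and 51. The median of chromosome 13 changed with the placing of the windows. It was 47.5 with shifted windows and 50 with windows wholly between the first and last interval. The other autosomes were not recomputed in this way. Windows with 50 intervals or more numbered 10 of 21 (47.6%, exact 95% interval 25.7 to 70.2%), against 94 of 553 (17.0%, 13.96 to 20.4%) on the other autosomes and 18.1% over all 22; chromosome 20 had a higher share, at 53.8%, and chromosomes 19 and 14 followed with 41.7 and 36.8%. The fullest was the window from 25 to 30 Mb with 121 intervals, followed by 20 to 25 Mb with 111, 40 to 45 Mb with 100, 50 to 55 Mb with 94 and 110 to 115 Mb with 91. Each of these 5 was exceeded by fewer than 10% of windows on the other autosomes, the fullest by 31 of 553 (5.61%). The fullest 5 Mb window of another autosome held between 32 and 664 intervals.

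From one end to the other the chromosome fell into filled stretches parted by sparse ones. The division was made after seeing the counts, with 5 Mb windows of 12 intervals or fewer taken as sparse. By this limit 15 of the 21 windows of chromosome 13 were filled, against 343 of 553 (62.0%) on the other autosomes. Sparse windows were thus common elsewhere too. The first filled stretch, up to 35 Mb, held 324 intervals, or 20.3 per Mb. A sparse window from 35 to 40 Mb followed, with 5 intervals, and then a filled stretch from 40 to 55 Mb with 271 intervals, or 18.1 per Mb. These 2 filled stretches held 32.0 and 26.8% of the chromosome's intervals.

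The middle of the chromosome was thinner. The window from 55 to 60 Mb held 10 intervals, that from 60 to 65 Mb held 35 and that from 65 to 70 Mb held 6. From 70 to 85 Mb there were 112 intervals, or 7.47 per Mb, which is close to the 7.38 per Mb of the other autosomes. From 85 to 95 Mb there were 21, or 2.10 per Mb. The last filled stretch ran from 95 to 115 Mb with 228 intervals, or 11.4 per Mb, and was itself uneven: its windows held 50, 18, 69 and 91 intervals. Together the 15 filled windows held 970 intervals (95.8%) and the 6 sparse ones 43. This split follows largely from sorting the windows by their own counts. The sparse windows include the one from 115 Mb, which the list enters only by its last interval.

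Divided into 4 equal lengths, the chromosome carried 387, 262, 127 and 237 intervals. The fullest of the 4 held 3.05 times as many as the emptiest. On other autosomes the same ratio ran from 1.82 on chromosome 7 to 380.5 on chromosome 21. At this scale chromosome 13 was less even than chromosomes 2, 5, 6, 7, 10, 11 and 12, whose ratios lay between 1.82 and 2.48. Neighbouring 1 Mb windows of chromosome 13 resembled each other, with a Spearman rho of 0.66 between adjacent counts over its 97 windows. The median of the other autosomes was 0.46 and chromosome 15 alone was higher, at 0.68. The intervals were therefore spread evenly in the sense that no single window dominated, while the level itself changed over stretches of several Mb.

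**Figure D3:**
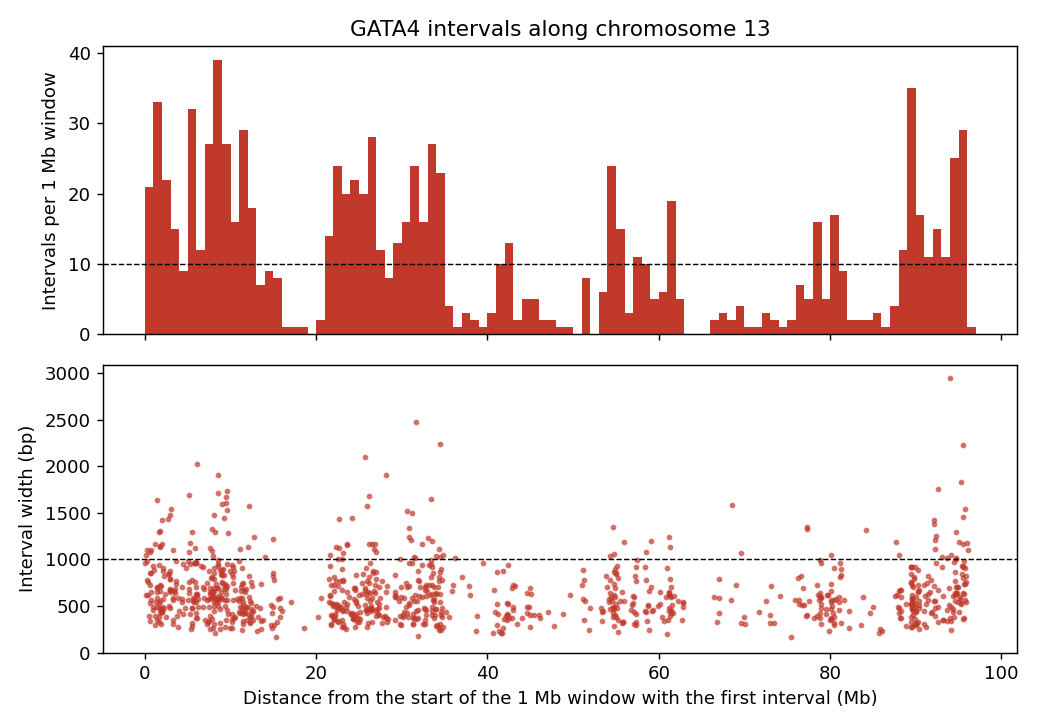
The upper panel gives the number of intervals in each 1 Mb window of chromosome 13 and the lower panel the width in bp of each of the 1013 intervals, both against the distance in Mb from 19 Mb, the start of the 1 Mb window that holds the first interval; dashed lines mark 10 intervals and 1000 bp. Long runs of windows at or above 10 stand near both ends and between 21 and 35 Mb of distance, no window exceeds 39 intervals, and no interval exceeds 2950 bp.

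At the scale of 1 Mb, runs of windows with 10 intervals or more were long. The longest ran from 24 to 32 Mb (8 windows, 200 intervals) and from 107 to 115 Mb (8 windows, 155 intervals). Next came 40 to 47 Mb (7 windows, 140 intervals), 48 to 54 Mb (6 windows, 119 intervals) and 19 to 23 Mb (4 windows, 91 intervals). These 5 runs contained 33 of the 42 windows past the limit. The fullest single windows were 27 to 28 Mb with 39 intervals, 108 to 109 Mb with 35, 20 to 21 Mb with 33 and 24 to 25 Mb with 32, and the windows from 30 and from 114 Mb held 29 each. In 79 of the 2705 windows elsewhere there were more than 39.

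The longest stretch without an interval ran from 81876834 to 85468737, a length of 3.59 Mb, and contained 3 of the 6 empty windows. The next ran from 37538466 to 39210897 (1.67 Mb) and from 89106951 to 90707358 (1.60 Mb). The longest such stretch of the other autosomes was between 3.00 Mb on chromosome 7 and 21.1 Mb on chromosome 9, with a median of 4.18 Mb. Stretches of 1 Mb or more numbered 12 on chromosome 13, against a median of 21 on the others. These counts are not scaled to length: chromosome 13 spanned 96.0 Mb and the others had a median span of 134.8 Mb. Chromosome 14 had 10 such stretches over 88.3 Mb and chromosome 7 had 21 over 159 Mb. As read depth is unknown, such a stretch means only that the list names no common interval there.

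Intervals of chromosome 13 mostly stood apart from each other. The median distance between neighbours was 31.2 kb (quartiles 8.73 and 87.6 kb), against 14.5 kb (quartiles 2.24 and 86.4 kb) on the other autosomes. The upper quartiles were close, so the pooled difference lay in the short distances. Taken one by one, the other autosomes had a median distance of 25.3 kb (quartiles 11.3 and 50.5 kb), and 9 of them lay above chromosome 13. Chromosomes 11, 7, 14 and 15, nearest in density, had 27.5, 31.3, 33.5 and 34.98 kb. Distances over 10 and up to 100 kb made up 51.1% on chromosome 13, against 31.6% elsewhere. Distances of 100 bp or less were rare, at 10 of 1012 (0.988%, exact 95% interval 0.475 to 1.81%), against 956 of 19842 (4.82%, 4.52 to 5.13%). This share was the lowest of the 22 autosomes, although those of chromosomes 15 and 6, 1.09 and 1.29%, lay within its interval. The smallest distance was 2 bp, and no intervals overlapped.

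Linking intervals no more than 10 kb apart gave small clusters. On chromosome 13, 560 intervals (55.3%) had no neighbour within that distance and 237 (23.4%, exact 95% interval 20.8 to 26.1%) were in clusters of 3 or more, against 8518 of 19863 (42.9%, 42.2 to 43.6%) on the other autosomes. Over all 22 autosomes the share was 41.9%. Chromosomes of like density had like shares: chromosome 11 had 25.8%, chromosome 14 had 22.96%, chromosome 7 had 25.4% and chromosome 15 had 21.1%. There were 66 clusters of 3 or more, 44 of them with 3 members, 13 with 4 and 6 with 5. The largest had 9 members, and on the other autosomes the largest cluster had between 10 members on chromosome 6 and 316 on chromosome 21. Chromosomes 6, 15 and 22, like chromosome 13, had no cluster of 20 or more, whereas such clusters held 18.1% of all intervals on the other 21 autosomes.

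The 3 largest clusters differed in how tightly they were packed. The cluster of 9 ran from 27052141 to 27075556, a length of 23.4 kb, of which intervals covered 28.5%. Its members were 307 to 1476 bp wide and lay 137 to 4078 bp apart, and it lay in the fullest 1 Mb window. The cluster of 8, from 108509053 to 108554090, was 45.04 kb long and covered to 9.85%. Its members were of a like size, 473 to 722 bp, and lay 1203 to 9708 bp apart, so it is held together only by the linking distance. The cluster of 6 ran from 20417676 to 20438154 (20.5 kb, 22.6% covered), with members of 355 to 1633 bp. Its widest member was the last. A more compact group was the cluster of 5 from 28534470 to 28544039, where intervals covered 56.3% of 9.57 kb with a median width of 954 bp; it was named after its values were seen.

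The median width of chromosome 13 was close to that elsewhere, and wide intervals were fewer than on the other autosomes pooled. The median width was 579 bp (quartiles 426 and 781 bp), against 589 bp (quartiles 418 and 869 bp) on the other autosomes, a ratio of 0.98 that lies far inside the spread of single autosomes (450 to 831 bp). At the 95th percentile the width was 1241 bp, against 1660 bp elsewhere, and at the 5th it was 289 bp, against 261 bp. Intervals of 1 kb or wider numbered 118 of 1013 (11.6%, exact 95% interval 9.74 to 13.8%), against 3705 of 19863 (18.7%, 18.1 to 19.2%) on the other autosomes and 18.3% over all 22. Of single autosomes, 5 had a lower share, and chromosomes 15 and 7 were close, at 11.9 and 12.9%. At 2 kb or wider there were 6 (0.592%, 0.218 to 1.28%), against 605 (3.05%, 2.81 to 3.29%) on the other autosomes pooled. The chromosomes nearest in density had shares within the interval of chromosome 13, from 0.735% on chromosome 11 to 0.962% on chromosome 7, and chromosomes 6, 10 and 22 had lower shares. At 3 kb or wider there were 0 of 1013, an exact upper limit of 0.363%, against 169 (0.851%) on the other autosomes pooled. Chromosomes 6, 14, 15 and 22 also had 0, and chromosomes 7 and 11 had 0.222 and 0.221%. The narrow end was thinner too, with 63 intervals under 300 bp (6.22%, 4.81 to 7.89%), against 1703 (8.57%, 8.19 to 8.97%). Under 300 bp, 7 single autosomes had a lower share, chromosome 14 among them at 5.93%, whereas chromosomes 7, 11 and 15 had 9.25, 9.63 and 9.30%. Widths between 300 and 1000 bp were thus more frequent on chromosome 13 than on the other autosomes pooled, and both ends less so.

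**Figure D4:**
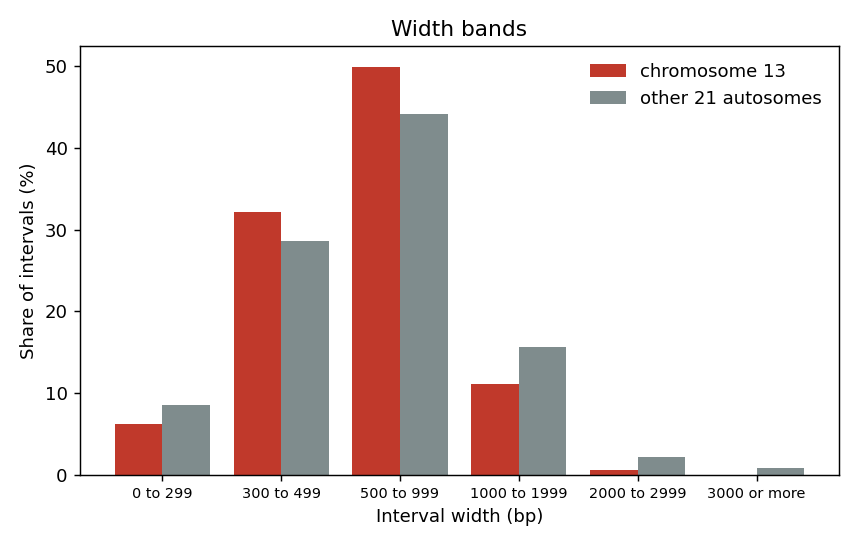
Bars give the share of intervals (%) in 6 bands of width (bp), for chromosome 13 in red and the other 21 autosomes pooled in grey. Chromosome 13 had 49.95% of its intervals from 500 bp up to 1000 bp, against 44.1% elsewhere, 11.1% against 15.6% from 1000 bp up to 2000 bp, and 0 against 0.851% at 3000 bp or more.

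The widest interval of chromosome 13, chr13:112963017-112965967, measured 2950 bp and stood 79.5 kb from its nearest neighbour; on the other autosomes 182 intervals were wider. Next in width were chr13:50697989-50700459 with 2470 bp, chr13:53420209-53422446 with 2237 bp, chr13:114536705-114538935 with 2230 bp and chr13:44715625-44717728 with 2103 bp. The rest of the 10 widest were chr13:25085283-25087303 (2020 bp), chr13:27541642-27543553 (1911 bp), chr13:47126896-47128803 (1907 bp), chr13:114262016-114263846 (1830 bp) and chr13:111566243-111567995 (1752 bp). Of these 10, 4 lay in the window from 110 to 115 Mb, which held 8.98% of the chromosome's intervals. No neighbour within 10 kb was found for 6 of the 10, which is near the 55.3% among all its intervals. On 17 of the other autosomes the widest interval was wider than 2950 bp; chromosomes 6, 14, 15 and 22, at 2637, 2482, 2677 and 1150 bp, were the exceptions. The narrowest intervals of chromosome 13 were 165, 166 and 178 bp wide.

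Where intervals were wide and where they were clustered did not always coincide. The window from 110 to 115 Mb had the highest share of intervals of 1 kb or wider among windows with more than 1 interval, 20 of 91 (21.98%), and a median width of 649 bp. Its neighbour from 105 to 110 Mb held 69 intervals, but only 2 of them (2.90%) reached 1 kb, and their median was 520 bp. That neighbour was also the more clustered, with 43.5% of its intervals in clusters of 3 or more, against 20.9% from 110 to 115 Mb. The windows from 20 to 25 Mb and from 25 to 30 Mb lay above chromosome 13 as a whole in both features. Their median widths were 651 and 653 bp, against 579 bp, and 36.0 and 38.8% of their intervals were in clusters, against 23.4%. Intervals of 1 kb or wider numbered 17 (15.3%) and 16 (13.2%), against 11.6% on chromosome 13 and 18.3% over all 22 autosomes. The windows from 45 to 50 Mb and from 50 to 55 Mb had like shares of these, 14.3 and 14.9%. In the middle of the chromosome, 0 of the 35 intervals from 60 to 65 Mb reached 1 kb, and the median there was 418 bp.

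Width and crowding went together within the chromosome. In 1 Mb windows with 1 to 4 intervals the median width was 472 bp (66 intervals), with 5 to 9 it was 512 bp (107 intervals), with 10 to 19 it was 557 bp (309 intervals) and with 20 or more it was 624 bp (531 intervals). The quartiles of neighbouring classes overlapped, from 376.5 and 620.5 bp in the emptiest class to 460.5 and 856.5 bp in the fullest. Over the 58 windows with 5 intervals or more, count and median width had a Spearman rho of 0.55 and a Pearson r of 0.53. Over the 20 windows of 5 Mb with 5 or more, rho was 0.50, against a median of 0.49 over the other 21 autosomes. These correlations are descriptions over windows of the same 4 libraries.

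Intervals in clusters of 3 or more had a median of 623 bp, against 558 bp for those without a neighbour within 10 kb, a ratio of 1.12. On the other autosomes pooled the medians were 725 and 516 bp, but taken one by one those autosomes had a median ratio of 1.24 with quartiles of 1.09 and 1.45, so the ratio of chromosome 13 lay inside their spread. For clusters of 3 to 5 the medians were near each other, 624.5 bp on chromosome 13 (214 intervals) and 650 bp elsewhere (2258 intervals). For clusters of 6 to 9 they were 588 bp (23 intervals, from 3 clusters) and 744.5 bp (1098 intervals). Lone intervals had a median of 558 bp on chromosome 13 and 516 bp on the other autosomes pooled. Chromosome 11 had the same median, chromosomes 19 and 20 lay above it, and chromosomes 15, 14 and 7 were close, at 542, 536 and 536 bp. The widths of adjacent intervals on chromosome 13 had a Spearman rho of 0.08, against a median of 0.20 on the other autosomes, and chromosome 22 alone had a lower one, at -0.11; chromosomes 14 and 15 were close, at 0.10 each.

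**Figure D5:**
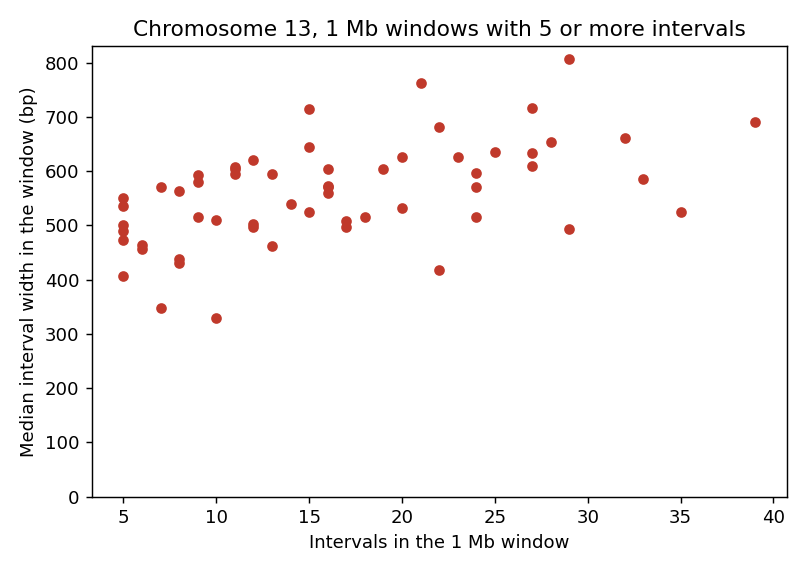
Each point is 1 of the 58 windows of 1 Mb on chromosome 13 with 5 or more intervals, with the number of intervals on the x axis and their median width in bp on the y axis. Median widths run from 330 to 806 bp, and fuller windows had wider intervals on the whole (Spearman rho 0.55).

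Number and width together gave the length covered. The intervals of chromosome 13 covered 657 kb, or 6.84 bp per kb, against 5.55 bp per kb on the other autosomes, a ratio of 1.23. This is smaller than the ratio of 1.43 for number, and the mean interval was narrower, 648 bp on chromosome 13 against 752 bp on the other autosomes. The median of the other autosomes was 4.98 bp per kb, and 6 of them lay above chromosome 13.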

How the data were processed

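GATA4 CUT&RUN was measured in 4 libraries of PaTu8988S cells, numbered in the labels. The submitters' processing notes name build hg19 and the tools SEACR (a caller of CUT&RUN peaks) and HOMER. Their versions and settings, and how much overlap made an interval common, were not given in the sources used here. The deposited list is a single one for the 4 libraries, labelled as their common intervals. It has 3 columns, the chromosome, start and end, with no score, signal or count. Spread between libraries, depth and strength are therefore unknown.

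From it, Python 3.11.15 with pandas 2.3.3, numpy 2.4.6, scipy 1.17.1 and matplotlib 3.10.9 computed widths (end minus start), counts per 1 and 5 Mb window by interval centre from the window of the first to that of the last interval, and clusters linked within 10 kb. The counting was checked on made-up positions with known answers. Shares have exact 95% intervals. Protein-coding genes were counted by chromosome in a RefSeq table of GRCh38.p14, whose coordinates were not used. Named were the 10 widest intervals, the 5 fullest windows, the 3 largest clusters and the 3 longest empty stretches. The members, limits and lists were chosen with earlier results of these data known. Of the planned list of 40 chromosome 13 genes, 5 are named as background. Motifs and distances to genes need an hg19 sequence or annotation and were not run.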

Additional observations from a re-analysis of the deposited data

How the results depend on the processing

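Of 33 recomputed values, 21 stayed within the binomial interval of their share or, for medians, widths and coverage, within 1.5 times. Another 11 moved further and 1 changed direction. Some of the 21 could not move, because chromosome 13 has no cluster of 20 or more intervals. Leaving such clusters out therefore fixed its share of filled 1 Mb windows, its 5 Mb median and its clustered share. The density ratio of chromosome 13 to the other autosomes, 1.43, was 1.61 after merging intervals within 1 kb, 1.75 without clusters of 20 or more intervals, which removes intervals from other autosomes only, and 1.33 without the fullest 5 Mb window of chromosome 13. The median width ratio of 0.98 became 1.03 without clusters of 20 or more, and both are close to 1. The share of 1 Mb windows with 10 or more intervals was 19.6% when only intervals no narrower than the median were kept, so that fewer were counted, 59.8% with a limit of 5 and 20.6% with a limit of 20. The median per 5 Mb window was 15 among the wider intervals. Over all intervals it was 47.5 with shifted windows and 50 with windows wholly between the first and last interval. The share in clusters of 3 or more was 15.1% among the wider intervals, 17.4% after merging, 9.87% with a linking distance of 5 kb and 44.9% with 25 kb. Windows wholly between the first and last interval were an alternative chosen after seeing the data. Leaving out each library, full chromosome length, motifs and gene starts could not be run on this list. No paired analysis was possible because a single list stands for the only group.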

Other observations

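After merging intervals within 1 kb, chromosome 13 had 958 intervals, its largest cluster had 8 members, against 3 to 161 on the other autosomes, and its widest merged interval was 4242 bp. Its 1 Mb windows holding 50% of the intervals were then 20.6% of all its windows, against at most 19.3% on another autosome, and among intervals at or above the median width 16.5%, against at most 13.5%.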
